A study of Populus trichocarpa with 15 samples.

Results

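Regions of open chromatin that were called in most but not all leaf libraries of *Populus trichocarpa* were examined, to see which libraries lacked the call and where and how wide such regions were. Peaks of 14 libraries on chromosomes 1 to 19 were merged where they overlapped or touched, and regions under 1000 bp that held a peak base from 10, 11, 12 or 13 libraries were kept. This left 10388 members of 55198 merged regions (18.8%), which covered 3.91 Mb of the 16.5 Mb in all regions (23.7%). The members were chosen by the calls themselves, so numbers of calls and misses are given as a description with no test. The exception is a test of calls run over all regions, whose counts among members are printed with nothing read from them. A miss means that a library's list held no peak in the region, and a region without a peak was not shown to be closed.

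The leaves came from wild trees in Oregon and were flash-frozen, with no treatment in any group. Trees 13 and 14 are stems of 1 individual and gave 5 libraries each (branches 13.1 to 13.5 and 14.1 to 14.5), while tree 4 is another individual and gave 4 libraries (branches 4.2 to 4.5). Each library was from 1 branch, so replicates are branches and each side of a comparison is 1 stem or 1 individual. The p-values below describe these trees only. A further library, titled 1.1, carries peak names of tree 4, branch 1, and was placed in no group.

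Chromatin wraps DNA around nucleosomes, and the stretches left accessible are where transcription factors reach promoters and distal regulatory sequences. ATAC-seq marks those stretches by letting a transposase insert adapters into accessible DNA, and a peak is a stretch with more insertions than its surroundings. Leaves mix epidermal, mesophyll and vascular cells, so a peak from whole leaves is an average over cell types, and fewer cells with an open site cannot be told apart from less open sites per cell. No source used here names the genome build of the lists, so members are described by position, width and score, without sequence or neighbouring genes.

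Of the members, 3735 were called in 13 libraries, 2610 in 12, 2103 in 11 and 1940 in 10. They lay between 9382 regions under 1000 bp called in all 14 libraries and 21794 called in 2 to 9. Over the 145432 combinations of a member and a library, 23024 (15.8%) were misses. The median member was 341 bp wide (quartiles 273 and 444 bp, range 130 to 999 bp), and 1771 members (17.0%) reached 500 bp.

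Misses were gathered in the libraries with short lists. Branch 13.5, with 12801 peaks, missed 77.2% of the members (8022). Branch 4.3 (19837 peaks) missed 33.4%, branch 14.5 (21232 peaks) 25.02% and branch 13.4 (23887 peaks) 19.2%. These 4 shortest lists held 16081 of the misses (69.8%), and each of the 3 trees is among them. With each list reduced to its 12801 most significant peaks, the share was 29.8% for the same members and 36.6% where the members were chosen anew. At that length no library called more than 37.6% of the same members, so the 29.8% was largely set by the cut.

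In the middle of the range, branch 4.2 (25084 peaks) missed 12.98%, branch 13.3 (25312 peaks) 13.98%, branch 14.2 (26367 peaks) 18.4% and branch 13.1 (28138 peaks) 6.54%. Branch 4.5 (30645 peaks) missed 4.87%, branch 14.4 (31096 peaks) 2.45%, branch 4.4 (31816 peaks) 2.33% and branch 14.1 (32062 peaks) 4.16%. The longest lists, branch 13.2 (37520 peaks) and branch 14.3 (39694 peaks), missed 0.828% and 0.260%. The 4 longest lists together held 787 misses (3.42%).

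The order of the lists by length was nearly the order by misses. Pearson's r between list length and the percentage missed was −0.877 and Spearman's rho −0.969 over 14 libraries, and without branches 13.5 and 14.3, the lengths farthest from the median, r was −0.924 and rho −0.951 (n = 12). A longer list has more chances to touch a region and the same lists chose the members, so these are descriptions. The departures from the order were branch 13.3, which missed more members than branch 4.2 with a shorter list, branch 14.2, which missed more than branches 13.3 and 4.2, and branch 14.1, which missed more than branches 14.4 and 4.4. Read depth is not known, so list length cannot be told apart from sequencing effort.

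**Figure D1:**
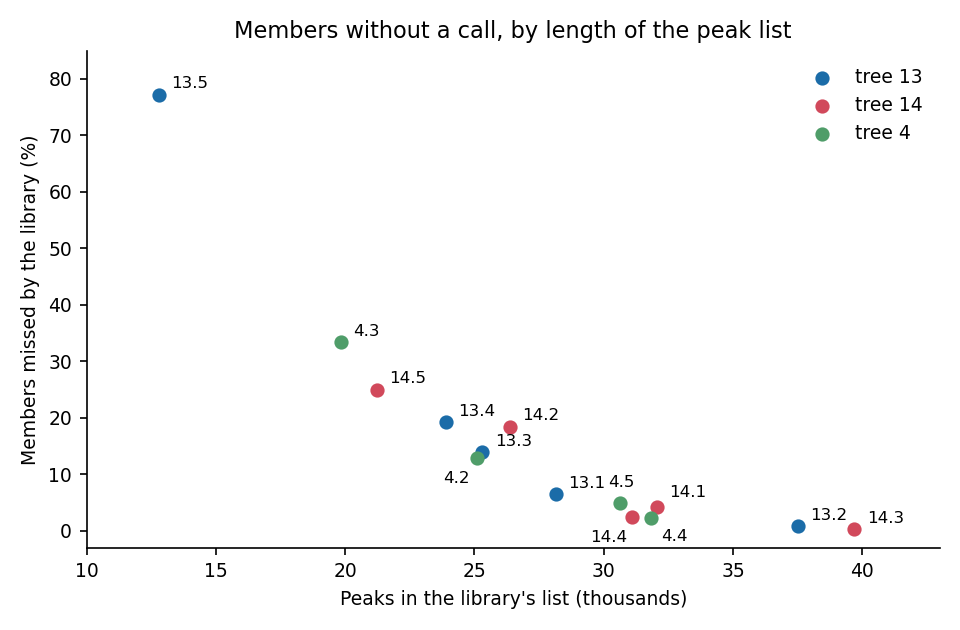
Percentage of the 10388 members missed by each of 14 libraries (y axis) against the number of peaks in its list (x axis, in units of 1000), 1 point per library, coloured by tree. Misses fall from 77.2% in branch 13.5 to 0.260% in branch 14.3. In each of the 3 trees longer lists mostly missed fewer members, and no slope was fitted.

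A member with fewer calls has more misses to place, so the percentage a library missed rose as calls fell. Branch 13.5 missed 68.9% of the members with 13 calls, 75.7% of those with 12, 84.2% of those with 11 and 87.7% of those with 10. For branch 4.3 these percentages were 11.03%, 33.7%, 47.7% and 60.4%. In the longest list, branch 14.3, they were 0.0268% of the members with 13 calls and 0.928% of those with 10. As a share of all misses, branch 13.5 held 68.9% at 13 calls, 37.9% at 12, 28.1% at 11 and 21.9% at 10.

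A miss pattern is the set of libraries that lack the member. Among members with 13 calls, 2573 were missed in the shortest list alone, branch 13.5. Among members with 12 calls, 550 (21.1%) were missed in exactly the 2 shortest lists, branches 13.5 and 4.3, and 173 members with 11 calls (8.23%) were missed in exactly the 3 shortest. Of the members with 10 calls, 102 (5.26%) were missed in exactly the 4 shortest lists. Each of these was the commonest pattern at its number of calls, and together they covered 3398 members (32.7%).

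The remaining members were spread over many patterns. Members with 12 calls filled 63 of 91 possible pairs of missing libraries, those with 11 calls 151 of 364 trios and those with 10 calls 285 of 1001 sets of 4. A pattern with a single member occurred 108 times among the members with 10 calls. Among pairs, branch 13.5 was missing together with branch 14.5 in 381 members, with branch 13.4 in 273 and with branch 14.2 in 240, whereas branches 13.2 and 14.3 were the missing pair in none with 12 calls.

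**Figure D2:**
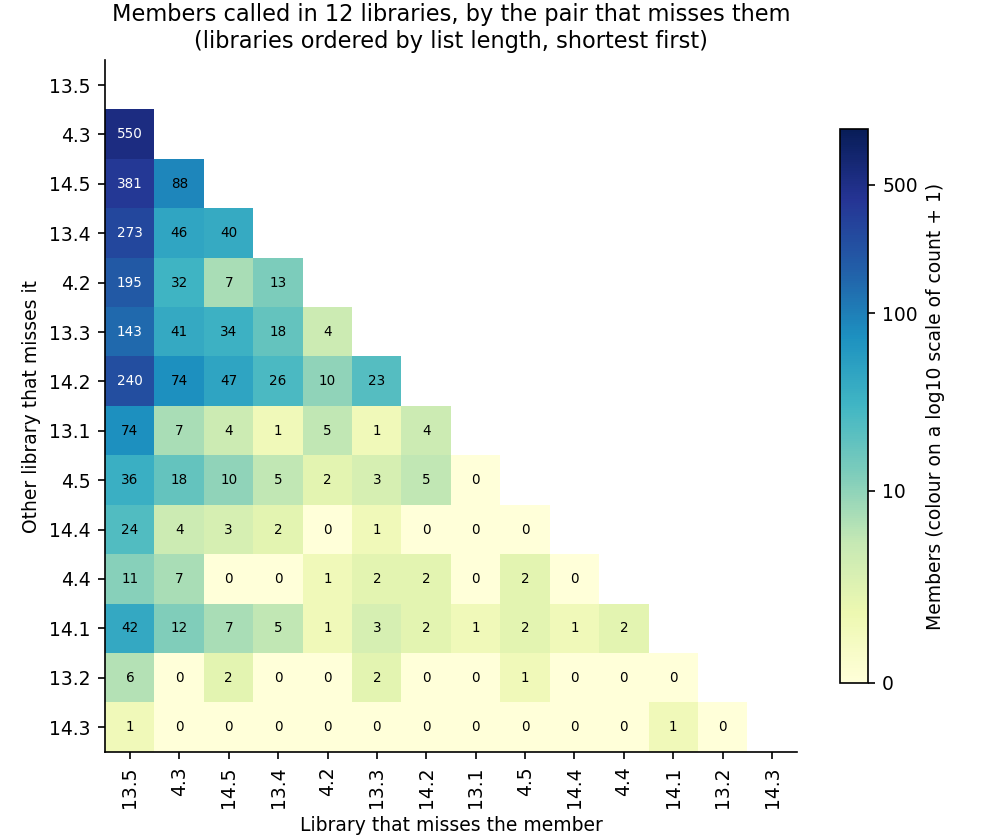
Number of members called in 12 libraries for each pair of libraries that missed them, with libraries ordered from the shortest list (left and top) to the longest; colour is on a log10 scale of the count plus 1. The counts fall from 550 for branches 13.5 and 4.3 towards 0 among the longest lists.

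Taking branch 13.5 away did not bring most members to a full set of calls. The 2573 members called in every other library were 24.8% of all members, 7815 were missed in at least 1 other library and 4677 in at least 2 others. Where branch 13.5 did call a member, the merged region was wider. With 13 calls the 1162 members it called measured 423 bp in the median, and those it missed 344 bp. With 10 calls the medians were 370.5 bp for the 238 it called and 299 bp for the others. A merged region widens with each peak in it, so these widths are not independent of the calls.

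The same members were then counted with lists of equal length, by keeping the 12801 most significant peaks of each library. The share of members called then ran from 34.8% (branch 4.2) to 37.6% (branch 4.4) in the 13 libraries other than 13.5. With full lists these 13 libraries had spanned 33.1 percentage points, and with equal lists they spanned 2.82. The cut left each of them between 3613 and 3906 calls of members, so the narrow span was largely set by the cut. The 5 libraries of tree 14 called 35.3% to 37.6% and the 4 of tree 4 called 34.8% to 37.6%. Those of tree 13 other than 13.5 called 35.6% to 37.1%. The trees overlapped apart from branch 13.5, and nothing is read from this, because the cut brings libraries close together. The list of branch 13.5 is whole at this length and its 22.8% is unchanged. Its calls helped choose the members, since a region it called was a member only where another library lacked it.

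**Figure D3:**
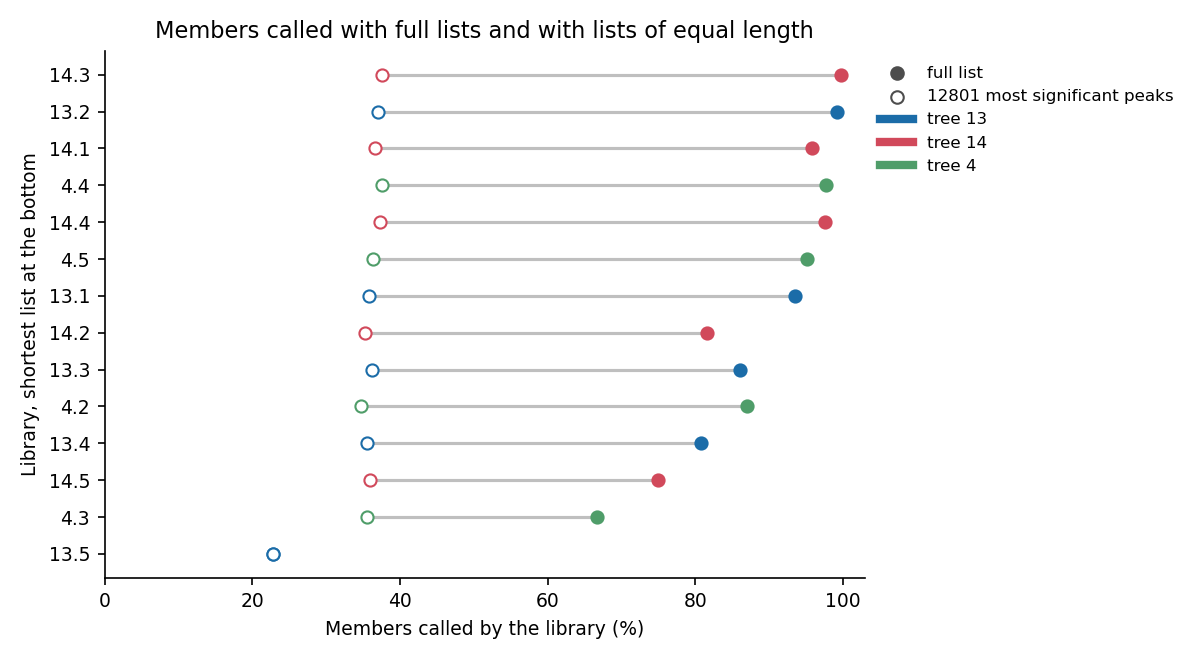
Percentage of the 10388 members called by each library (x axis) with its full list (filled points) and with its 12801 most significant peaks (open points), libraries on the y axis from the shortest list at the bottom. The open points of the 13 libraries other than 13.5 lie between 34.8% and 37.6%, and both points of 13.5 fall together at 22.8%. The closeness of the open points is largely set by the cut.

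The members' peaks were of middling significance in their lists. Each peak has a −log10 q-value (larger is more significant), and its percentile within its list is 100 for the most significant peak. The mean −log10 q of a member over the libraries that called it had a median of 5.36 (quartiles 4.54 and 6.47) and ran from 2.53 to 18.1. The mean percentile had a median of 45.8, with quartiles 35.3 and 57.4. Of the single calls, 6.91% lay under a −log10 q of 3 and 6.54% reached 10, and 3191 members (30.7%) had at least 1 call that reached 10.

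Score and width rose together with the number of calls. The median percentile of peaks was 36.4 in members with 10 calls, 40.6 with 11, 46.5 with 12 and 56.8 with 13. The median width of a single peak was 172, 184, 197 and 221 bp in the same order, and that of the merged region 308, 326, 342 and 367 bp. Just outside the lower limit, regions with 9 calls had a median percentile of 33.4, a peak width of 166 bp and a region width of 298 bp. Just outside the upper limit, regions under 1000 bp called in all 14 libraries stood at 78.1, 321 bp and 476 bp. The gap between 13 and 14 calls was thus wider than any between neighbouring numbers of calls among the members. At the width limit, the widest members measured 999 bp and the narrowest of the 53 regions left out for width 1000 bp.

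**Figure D4:**
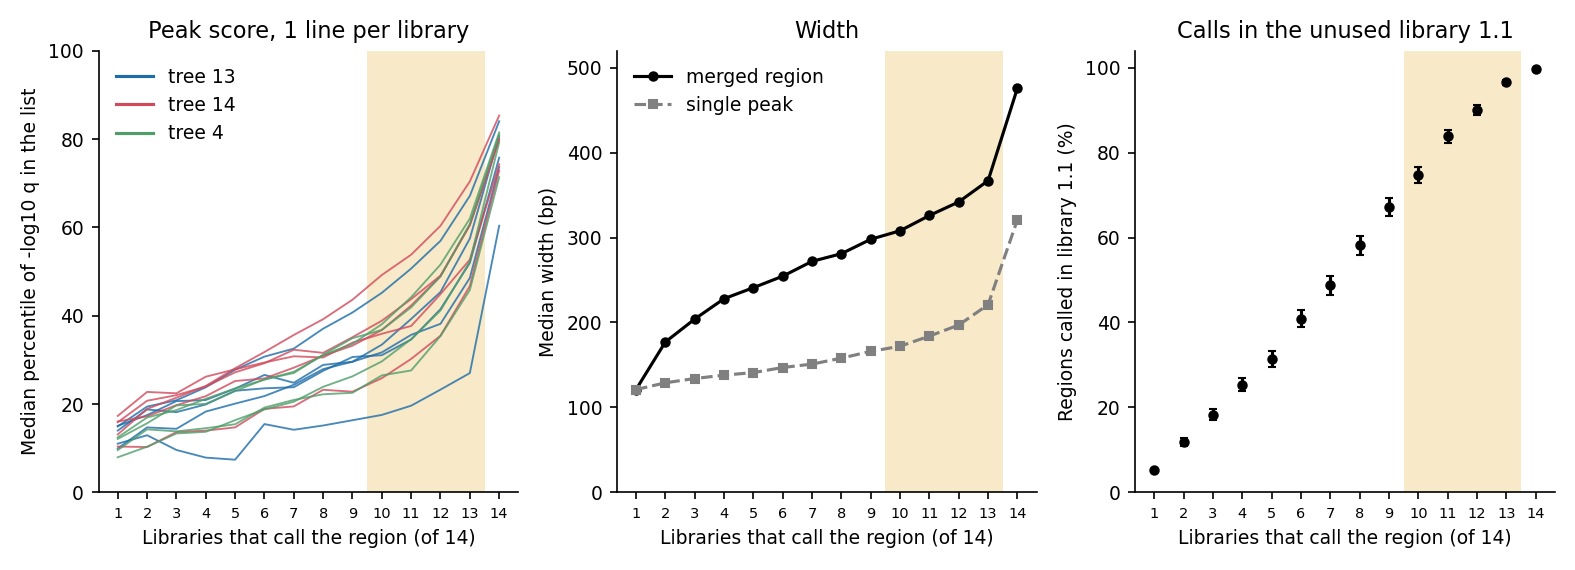
By the number of libraries that call a region (x axis, members shaded): the median percentile of −log10 q of its peaks in each library's list (left, 1 line per library coloured by tree), the median width in bp of merged regions and single peaks (middle) and the percentage of regions called in library 1.1 with Wilson 95% intervals (right). Percentile and width climb across the members and step up at 14 calls, where the median peak is 321 bp wide against 221 bp at 13 calls.

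Library 1.1 gives a readout that the choice of members did not use. It called 9173 of the 10388 members (88.3%, Wilson 95% interval 87.7% to 88.9%, for counting error over regions only). The share was 74.8% of members with 10 calls, 83.8% with 11, 90.04% with 12 and 96.6% with 13. It called 99.8% of the regions under 1000 bp found in all 14 libraries and 31.7% of those found in 2 to 9. Regions with 9 calls, just outside the members, stood at 67.3%, so the share rose with the number of calls below the members as well as among them. The list of library 1.1 held 26955 peaks on these chromosomes.

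Width divided the misses of some libraries and not of others. Members were put into 5 bands by the mean width of their peaks over the libraries that called them, holding 255 members under 140 bp, 1736 from 140 to 170 bp, 2511 from 170 to 200 bp, 2724 from 200 to 240 bp and 3162 of 240 bp or more. Branch 4.2, whose narrowest peak was 138 bp, missed 45.9%, 30.2%, 15.2%, 7.67% and 3.67% of these bands, narrowest first. Branch 13.3, whose list was nearly the same length and whose narrowest peak was 105 bp, missed 18.0%, 14.5%, 14.3%, 14.4% and 12.7%. The bands were thus far apart in branch 4.2 and close together in branch 13.3.

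Branch 13.5, with a narrowest peak of 159 bp, missed 97.6% of the members under 140 bp and 63.4% of those of 240 bp or more. For branch 4.3 (narrowest peak 129 bp) the same percentages were 54.1% and 27.2%, and for branch 14.2 (93 bp) 14.5% and 18.5%. Library 1.1, with a narrowest peak of 147 bp, missed 60.0% of the members under 140 bp and 2.25% of those of 240 bp or more. The 3 libraries whose narrowest peaks were widest, 13.5, 1.1 and 4.2, had the widest spread between these bands. The lists do not give a minimum peak width as a setting, and its part in the misses was not tested.

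**Figure D5:**
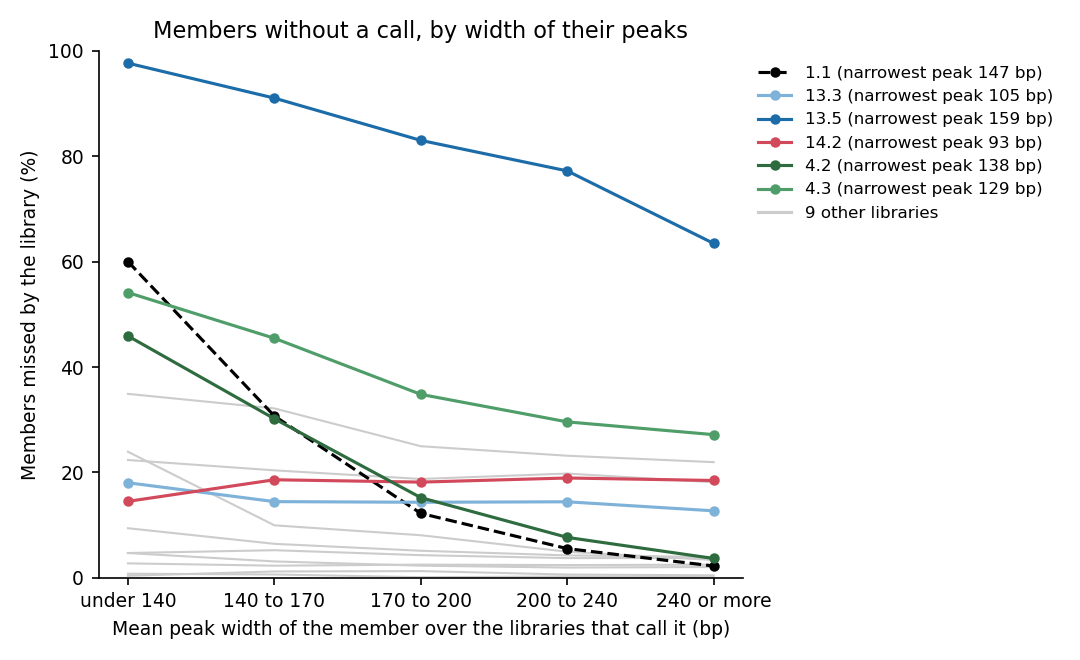
Percentage of members missed by each library (y axis) in 5 bands of the member's mean peak width in bp over the libraries that called it (x axis), 1 line per library, with 6 libraries coloured and library 1.1 dashed. The lines of 13.5, 1.1 and 4.2 fall steeply with width, from 45.9% to 3.67% in 4.2, and those of 13.3 and 14.2 stay nearly level. Except for 1.1, a library's own peak entered the mean where it called the member, so the bands are not independent of the calls.

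Missed members of branch 4.2 had nearly the same mean percentile as the ones it called. Their mean percentile over the libraries that called them had a median of 46.0, and their median region width was 271 bp. For members it called these were 45.7, with its own peaks included in the mean, and 353 bp. In branch 13.5 the missed members had the higher median of this mean percentile, 47.5 against 40.4. The 40.4 includes the branch's own member peaks, whose median percentile was 23.7, so the 2 values do not rest on the same libraries. That order is set in part by the choice of members, because a strong region that branch 13.5 called was usually called in all 14 libraries and so was no member. Of the members missed in branch 13.5, 13.8% were on average narrower elsewhere than the narrowest peak in its list, and in branch 4.2 this share was 7.27%.

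Few misses had a peak of the same library close by. Of the 23024 misses, 1597 (6.94%) had a peak of the same library within 500 bp of the region. Only 21.5% of members had any other region within that distance. A shifted peak that still touched the others was merged and counted as a call, so displacement was not tested. The share of misses with such a peak ran from 3.44% in branch 13.5 to 25.9% in branch 14.3, where it rested on 7 of 27 misses. The median distance to the nearest peak of the missing library was 7827 bp in branch 13.5 and 1538.5 bp in branch 13.2, the longest and the shortest of the 14 medians.

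Within members the calling libraries mostly overlapped at a common base. Such a base existed in 9311 members (89.6%), from 84.7% of those with 10 calls to 93.1% of those with 13. In 857 members (8.25%) at least 1 library had more than 1 peak. A merged region can therefore hold neighbouring peaks as well as copies of a single peak.

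Members were spread over the genome much like all regions. They made up between 18.1% of the merged regions on chromosome 17 and 19.5% on chromosome 18. Density per Mb varied more, from 16.4 members on chromosome 19 to 36.8 on chromosome 9, while the members' share of regions changed little. Median member width per chromosome lay between 327 and 355 bp. Branch 13.5 missed from 68.9% of the members on chromosome 8 to 82.7% on chromosome 18.

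Along the chromosomes, cut into 10 equal parts by the last peak end, the members' share of regions stayed between 18.2% and 20.02%. The parts themselves held from 7.33% of the members in the 5th to 11.8% in the 9th. The median distance from a member to the next region was 1334.5 bp, against 1270 bp over all regions under 1000 bp, and 21.5% of members had a neighbour within 500 bp against 24.7% of those regions.

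Trees were compared next, over libraries, to see whether misses, scores or widths of members belonged to a stem or an individual. The share of members called rests on the calls that chose them and is given with no test. The share of members called was 76.4% ± 30.8 (SD, n = 5) in tree 13 and 89.9% ± 10.99 (n = 5) in tree 14, a difference of −13.5 points. The branches of tree 13 called 93.5%, 99.2%, 86.0%, 80.8% and 22.8% (13.1 to 13.5), and those of tree 14 called 95.8%, 81.6%, 99.7%, 97.5% and 74.98%. Only branch 13.5 lay below the range of tree 14, and without it the difference was −0.853 points.

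Against tree 4, trees 13 and 14 together called 83.2% ± 22.9 (SD, n = 10) and tree 4 86.6% ± 14.1 (n = 4), a difference of −3.42 points. Tree 4 called 87.0%, 66.6%, 97.7% and 95.1% in branches 4.2 to 4.5, all within the range of the other individual. Leaving out branch 13.5 turned the difference to 4.68 points.

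Score and width of the member peaks were tested by two-sided exact permutation, and none of the 4 differences exceeded the spread between branches. The median percentile of member peaks was 42.5 ± 12.3 in tree 13, 48.8 ± 8.22 in tree 14 and 45.4 ± 6.55 in tree 4 (SD over branches). It mostly rose with list length, from 23.7 in branch 13.5 (12801 peaks) to 60.7 in branch 14.3 (39694 peaks). A tree difference in percentile therefore cannot be told apart from one in list length, and calls of the same lists chose the members. Tree 13 differed from tree 14 by −6.38 (exact permutation p = 0.389) and trees 13 and 14 from tree 4 by 0.198 (p = 0.974 by exact permutation). The median width of member peaks was 199.9 ± 25.3 bp in tree 13, 193.7 ± 28.6 bp in tree 14 and 208.5 ± 16.8 bp in tree 4, with differences of 6.20 bp (exact permutation p = 0.698) and −11.7 bp (exact permutation p = 0.415). The Benjamini-Hochberg adjusted p of these exact permutation tests was 0.974 for each, over a family of 6 that also held the share called. Single libraries moved these values more than trees did: the width of member peaks was lowest in branch 14.2 (163 bp) and highest in branch 14.3 (239 bp), both of tree 14.

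Region by region, calls were compared between trees by Fisher's exact test over all regions. The members' counts are printed beside those of all regions and nothing is read from them, because the same calls chose the members. Between trees 13 and 14, 9024 regions could reach an unadjusted p under 0.05, of which 3.04% did and 0 passed after Benjamini-Hochberg adjustment (0% of regions). Of the members 377 were testable and 12 (3.18%) reached it. All 12 were called in 1 of 5 libraries of tree 13 and 5 of 5 of tree 14. With at most 4 misses, no other split than 1 of 5 against 5 of 5, in either direction, can reach the threshold. Over all regions 2.84% were called more often in tree 14 and 0.199% more often in tree 13. Tree 13 holds the shortest list, and without branch 13.5 the members that reached the threshold numbered 44. Leaving out single libraries gave from 13 to 276 such members, the highest without branch 13.2. Each removal changes the members and can change the splits that reach the threshold, so these counts cannot be set against the 12. No share over all regions is given for them.

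Between trees 13 and 14 together and tree 4, 18566 regions could reach the threshold, 0.996% did and none passed after adjustment. Among members 4043 were testable and 56 (1.39%) reached it, all of them called more often in trees 13 and 14. In 49 the calls were 9 of 10 libraries against 1 of 4 and in 7 they were 10 of 10 against 1 of 4. The shares over all regions were 0.436% in favour of trees 13 and 14 and 0.56% in favour of tree 4. A member lacks at most 4 calls and therefore could not reach the threshold in favour of tree 4, so the direction among members was fixed by the rule. Leaving out single libraries gave from 7 (without 13.1, 13.2 or 14.1) to 92 members (without 4.4). Here too the members and the splits that reach the threshold can change, and no share over all regions is given.

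Misses confined to 1 tree were most frequent in tree 13, which holds the shortest list. All misses lay in tree 13 in 3446 members, in tree 14 in 506 and in tree 4 in 547. Most of these lacked 1 call: 2814, 443 and 478. Misses fell in all 3 trees in 1754 members. No member had 4 misses confined to tree 14 or tree 4, and 12 had 4 misses confined to tree 13.

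The highest member by percentile was a region of chromosome 18 from 1773483 to 1773803 (320 bp), called in every library but 13.5. Its −log10 q was 22.4, 24.96, 20.8 and 17.8 in branches 13.1 to 13.4. In branches 14.1 to 14.5 it was 16.5, 14.1, 23.1, 15.1 and 10.8, and in branches 4.2 to 4.5 it was 11.01, 12.8, 23.5 and 22.0. The mean was 18.1 ± 5.01 (SD, n = 13) and the mean percentile 96.1. The 3 trees overlapped in this score. Its peaks were 217 to 298 bp wide, above the narrowest peak of branch 13.5 (159 bp), and library 1.1 called it.

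Branch 13.5 also lacked a region of chromosome 8 from 6115739 to 6115954 (215 bp), with a mean −log10 q of 16.6 ± 4.75 (SD, n = 13) and a mean percentile of 95.4. The highest single value of any member, a −log10 q of 32.3 in branch 13.2, belonged to a region of chromosome 6 from 22165497 to 22165741 (244 bp). In the other 12 libraries that called it the value ran from 8.68 (branch 14.5) to 20.3 (branch 4.4), and it too was missed in branch 13.5.

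The highest members with 12 and with 10 calls were narrow. The region of chromosome 13 from 16212773 to 16212925 (152 bp) lacked calls in branches 13.5 and 4.2 and in library 1.1. Its −log10 q ran from 6.61 (branch 4.3) over a median of 15.9 to 20.5 (branch 14.2), with a mean percentile of 90.7 over 12 libraries. Its peaks measured 129 to 145 bp, narrower than the narrowest peak of branch 13.5 (159 bp) and of library 1.1 (147 bp). Within 1 kb of it, the region from 16213660 to 16213830 (170 bp) was missed in branches 13.5, 4.3, 4.2 and 13.1 and in library 1.1. There the −log10 q ran from 8.15 (branch 14.5) to 14.5 (branch 14.4), and the peaks measured 136 to 156 bp. These peaks were all wider than the narrowest peaks of branches 4.3 (129 bp) and 13.1 (120 bp), which missed the region.

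Branches 4.3 and 4.2 were also missing at the other named members of highest percentile with 10 to 12 calls. Branches 13.5, 4.3 and 4.2 and library 1.1 lacked a region of chromosome 13 from 16180326 to 16180531 (205 bp), where the −log10 q was 9.87 to 14.6 in the 11 other libraries, a narrow range. Its peaks measured 137 to 202 bp. The same libraries also lacked a region of chromosome 11 from 7391025 to 7391351 (326 bp), with a mean −log10 q of 13.1 ± 3.68 (SD, n = 11). On chromosome 1, the region from 24529322 to 24529539 (217 bp) was missed in branches 4.3 and 4.2 and was called in library 1.1 and in branch 13.5, with a −log10 q of 5.76 there against 10.1 to 17.6 elsewhere. Its peaks measured 154 to 198 bp, all wider than the narrowest peaks of branches 4.3 (129 bp) and 4.2 (138 bp). On chromosome 2, the region from 20460292 to 20460490 (198 bp) was missed in branches 13.5, 4.3, 14.5 and 4.2 and called in library 1.1, at a mean of 9.68 ± 2.26 (SD, n = 10).

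A few members went against the order of list length. Branch 13.5 called and branch 14.3 missed 11 members, of median percentile 32.4. The highest was a region of chromosome 11 from 7657176 to 7657402 (226 bp), missed in branches 4.2, 13.1, 13.2 and 14.3 and in library 1.1. Its −log10 q was 4.33 in branch 13.5 and ran from 3.17 (branch 14.5) to 7.93 (branch 14.2) over the 10 libraries, with peaks 130 to 179 bp wide. The next were regions of chromosome 7 from 10290358 to 10290675 (317 bp), missed in branches 14.1 and 14.3, and of chromosome 2 from 2438399 to 2438642 (243 bp), missed in branches 4.3, 14.5, 14.2 and 14.3.

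Of the 12 members with 4 misses in tree 13, the highest lay on chromosome 7 from 12470073 to 12470277 (204 bp). Branch 13.2 called it at a −log10 q of 6.15. Branches 14.1 to 14.5 gave 6.79, 3.25, 10.4, 6.28 and 3.70, and branches 4.2 to 4.5 gave 7.49, 5.37, 8.26 and 3.45. The value in branch 13.2 lay inside both ranges. The second, on chromosome 6 from 20160206 to 20160484 (278 bp), was called in tree 13 in branch 13.3 alone, at 4.25, with 3.85 to 8.75 in tree 14 and 3.55 to 9.21 in tree 4.

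In tree 14, members on chromosome 19 from 14099024 to 14099308 (284 bp) and chromosome 1 from 4601933 to 4602245 (312 bp) were missed in branches 14.5, 14.2 and 14.1, with mean −log10 q of 4.98 ± 1.42 and 4.95 ± 1.65 (SD, n = 11). In tree 4, the region of chromosome 12 from 446020 to 446328 (308 bp) was missed in branches 4.3, 4.5 and 4.4 and called in branch 4.2 at 3.77. In tree 13 its −log10 q was 4.68, 8.68, 7.59, 5.997 and 7.18 (13.1 to 13.5), and in tree 14 it was 8.29, 5.04, 11.2, 7.06 and 5.91. All 10 values of the other individual were above that of branch 4.2, and library 1.1 did not call the region. A region of chromosome 17 from 12053458 to 12053724 (266 bp) was missed in branches 4.3, 4.2 and 4.4 and in library 1.1, with a mean of 5.73 ± 1.61 (SD, n = 11). Its call in tree 4, a −log10 q of 6.47 in branch 4.5, was above 8 of the 10 values of trees 13 and 14, which ran from 3.15 to 8.69. These regions were picked for where their misses fell, so the patterns are descriptions.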

How the data were processed

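Peak lists of 15 ATAC-seq libraries were deposited, 1 per library, so the authors called peaks per library and not on pooled libraries. The submitters' processing notes name Trimmomatic 0.36, Bowtie 1.1.1 and MACS2 2.1.2 without saying what each did. ATAC-seq is not part of the study's methods section. The build, the calling thresholds and any read shift were not given in the sources used here. The deposited lists give start and end, a score and −log10 p and −log10 q values per peak, with no read counts, so depth is unknown and no interval for depth is given. Whether starts count from 0 or 1 is not given. Coordinates are printed as deposited.

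Groups were taken from the tree number in the titles. Library 1.1 entered no comparison, because its title and peak names disagree. Percentiles of −log10 q were taken within each list, and the lists were compared by calls. Differences between trees were tested by two-sided exact permutation over libraries, adjusted by Benjamini-Hochberg over 6 tests. The 2 on the share called are printed as differences without p, because calls chose the members. Calls per region were tested by Fisher's exact test on all regions that could reach p under 0.05, adjusted over those regions. The alternatives tried were equal lists, a width limit of 500 bp or none, touching peaks kept apart, 50% of the region covered, the top 50% of each list by significance, −log10 q of 10 or more, a replicate block and each library left out. Named regions are those with the 2 highest mean percentiles at each number of calls, the 3 highest called in the shortest and missed in the longest list, the 2 per tree with the most misses confined to it, and the highest single −log10 q. The members, lists of regions and tests were chosen with earlier results of these data known. The width bands and the share of misses in the 4 shortest lists were chosen after seeing the lists. Tests used scipy 1.17.1 with numpy 2.4.6, tables pandas 2.3.3 and plots matplotlib 3.10.9, under Python 3.11.15.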

Additional observations from a re-analysis of the deposited data

Results flagged for a closer look

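Among 18 groups of libraries examined (6 measures in 3 trees), 3 held a library far from the others, where chance gives about 1 group in 20. A pair of these 3 is the same value of branch 13.5, and both come from the calls that chose the members. Branch 13.5 called 22.8% of the members, against 80.8% or more in the other branches of tree 13. With equal lists its 22.8% could not change, since the common length is that of its own list, and those branches called 35.6% or more. In branch 14.3, 25.9% of the missed members had a peak of the same library within 500 bp, against at most 11.8% in the other branches of tree 14, and this rests on 27 misses. Library 1.1, which entered no comparison, called 88.3% of the members.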

How the results depend on the processing

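Of 86 recomputed tree differences in percentile and width, 76 kept their direction and 10 turned, and none passed the threshold (lowest exact permutation p 0.151, lowest adjusted p 0.562). Of 45 in the share called, 42 kept their direction and 3 turned. At a −log10 q of at least 10 the difference between stems in share called was 0.602 points and that between individuals in percentile −2.19, members numbered 1693, the unadjusted counts were 2 and 2 members, and the 4 shortest lists held 62.5% of misses. With the most significant 50% of each list there were 5383 members, 21 of them past the unadjusted threshold between individuals, and a share of 64.7%. With equal lists and the rule run again there were 4260 members, 32 past that threshold, a share of 36.6% and a stem difference in percentile of 0.203, and with the members kept the share was 29.8%. With 50% of the region covered the share was 59.2% and the individuals' percentile difference −0.671. The unadjusted counts are given without a share over all regions. The cause of these shifts was not tested.

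Leaving out each library, the difference between stems ranged from −19.2 to −0.853 points in share called, −10.2 to −1.35 in percentile and −0.850 to 17.65 bp in width. Between individuals the ranges were −10.4 to 4.68 points, −2.14 to 3.10 and −19.8 to −5.42 bp. Members ranged from 9494 (without 13.5) to 11232, the short lists' share from 60.4% to 74.3%. Members past the unadjusted threshold between stems numbered 214, 276, 106, 86 and 44 without 13.1 to 13.5, 20, 29, 23, 30 and 31 without 14.1 to 14.5, 38 without 4.3 and 13 to 18 without the rest. Between individuals they numbered 7, 7, 10 and 10 without 13.1 to 13.4, 7, 12, 8, 8 and 11 without 14.1 to 14.5, 19 without 4.3, 92 without 4.4 and 43 to 65 without the rest. Fewer libraries change which patterns can reach that threshold, and no share over all regions is given beside these counts. Of 54 recomputed counts of libraries calling a named region, 22 fell well below the original count, some of them to 0.

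With the replicate block, pairing branches of trees 13 and 14 by number, the differences were −13.5 points in share called, −6.38 in percentile (exact p = 0.312) and 6.20 bp (exact p = 0.875), and 0 members passed, since the smallest p is 0.0625. Same-numbered branches correlated between −0.0733 and 0.0586 in their calls over members. The same calls chose the members, so these values cannot show whether such branches share more than a number.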
